A study of Homo sapiens with 3 samples.

Results

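Glycolysis and the transcriptional response to low oxygen were followed through 42 genes in KYSE510, an established cell line from a human squamous carcinoma of the esophagus. The genes were taken as a list of names, with no threshold on their measured values. The list was chosen with earlier results of these data known, so its shares set beside those of all genes are descriptive only. It covers glucose uptake (2 genes), the glycolytic enzymes from hexokinase to lactate dehydrogenase (17), the enzymes that set fructose-2,6-bisphosphate (2) and lactate export (2). It also covers pyruvate dehydrogenase kinases (2), the hypoxia-inducible factors with their degradation machinery (5) and other hypoxia targets (12). All 42 were found among the 19266 genes of the count tables, and all 42 passed the filter on low counts that left 13580 genes for testing. The question of the study was which genes change when the transcript TCONS_02256997 is targeted. Cells of the sh1 group received lentivirus with hairpin 1 against that transcript, cells of the sh2 group received hairpin 2, and control cells received a scrambled hairpin. In all 3 groups the virus was left for 24 h and was followed by 48 h in 4 µM puromycin, and no group was labelled as hypoxic. Each group is 1 sample with 3 numbered tables of gene counts, treated here as 3 libraries (n = 3). Whether these tables come from separate cultures, libraries or runs is not stated in the labels, so every SD, SE and adjusted p measures the spread between tables, which may be technical, and no difference has a test between samples behind it. The targeted transcript was not analysed here, so how far each hairpin lowered it is not known from these values.

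Glycolysis splits glucose into pyruvate, and lactate dehydrogenase turns pyruvate into lactate that leaves the cell through monocarboxylate transporters. Tumour cells, squamous carcinomas among them, often run this route fast even where oxygen is plentiful. When oxygen is low, the prolyl hydroxylases of the EGLN family stop marking the alpha subunits of the hypoxia-inducible factors for the ubiquitin ligase subunit VHL, and the stabilised factors HIF1A and EPAS1 pair with ARNT and switch on genes that carry the core motif ACGTG or GCGTG, many glycolytic genes included. HIF1A and EPAS1 are controlled mainly at the level of protein, which RNA counts do not show.

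Total expected counts were 14660821 to 14770512 per library with sh1, 15759270 to 16092417 with sh2 and 15012961 to 15414591 in control. All 12 squamous epithelial markers listed (keratins 5, 14, 6A, 16 and 17, TP63 and others) were above 1 TPM on average. Their summed level was 5417 to 5523 TPM with sh1, 7167 to 7344 TPM with sh2 and 8619 to 8654 TPM in control. Of the 12, 2 were called higher and 8 lower with sh1, where 34.7% and 34.6% of all genes tested were. With sh2, 4 were called higher and 7 lower, where 34.2% and 34.3% of all genes were. A list of simple columnar markers, carried by KRT8 and KRT18, summed to 3470 to 3573 TPM with sh1, 3975 to 4061 TPM with sh2 and 3206 to 3287 TPM in control, with CDX2 at 0 in every library. Of 7 fibroblast markers only COL1A1 reached 1 TPM, and the endothelial list summed to at most 10.6 TPM. The leukocyte list, carried by CD68, summed to 160.2 to 166 TPM with sh1, 146 to 165 TPM with sh2 and 103 to 110.4 TPM in control. CD68, a lysosomal protein, was called higher in both hairpin groups, at a log2 fold change of 0.66 ± 0.043 (sh1) and 0.60 ± 0.043 (sh2) (largest adjusted p = 2.19e-13, edgeR). The other of the 2 leukocyte markers tested was also called higher with sh1 (0.63) and was not called with sh2 (0.39). The part of these marker levels in the results below was not tested. In bulk RNA, fewer cells of a type and less RNA per cell cannot be told apart.

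The 42 genes covered a wide range of levels. On the TPM scale, which is per length and allows genes to be compared, GAPDH led with 8019.9 ± 76.7 TPM in control (SD, n = 3) and was the 4th most abundant gene of the table. ALDOA, ENO1, PKM and TPI1 followed at 2485, 2124, 1321 and 1274 TPM, and 9 of the 10 most abundant members in control were glycolytic enzymes; the other was HIF1A at 479.7 ± 19.8 TPM. Further down, the neighbours SLC16A1 (146 ± 3.01 TPM) and ALDOC (145 ± 2.05 TPM) did not differ beyond their spread. At the low end ANKRD37, ANGPTL4 and the neuronal-type glucose transporter SLC2A3 had 2.17 ± 0.845, 1.17 ± 0.210 and 1.04 ± 0.285 TPM in control, with fewer than 100 counts each over the 3 libraries of any group. The median coefficient of variation between the libraries of a group was 3.0% with sh1, 2.58% with sh2 and 2.78% in control. The highest was 36.2% with sh1 (ANGPTL4), 46.2% with sh2 and 37.3% in control (ANKRD37 in both).

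Against control, 24 of the 42 genes rose with sh1 (57.1%) and 13 fell (31.0%), where 34.7% of all genes tested rose and 34.6% fell. A gene was called at an adjusted p below 0.05 (quasi-likelihood test of edgeR, Benjamini-Hochberg adjusted over all 13580 genes). With sh2, 22 rose (52.4%) and 11 fell (26.2%), against 34.2% and 34.3% of all genes. The median log2 fold change over the 42 was 0.27 with sh1 and 0.18 with sh2, against 0.014 and 0.0045 over all genes tested. At 1.5-fold or more, 9 genes rose (21.4%) and 8 fell (19.0%) with sh1, where 11.3% and 12.8% of all genes did, and 10 rose (23.8%) and 6 fell (14.3%) with sh2, where 9.73% and 12.4% did. The share that fell was near that of all genes with sh1 and below it with sh2 when any size of change is counted, and at 1.5-fold or more it was above it with sh1 and near it with sh2. Between the hairpins, 11 genes were higher with sh1 (26.2%) and 26 lower (61.9%), against 34.2% and 35.6% of all genes. At 1.5-fold or more, 5 were higher and 5 lower (11.9% each), close to the 12% and 11.3% of all genes. The comparisons share libraries (sh1 and sh2 are each set against the same control), so their values are given side by side and are not independent of each other.

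**Figure D1:**
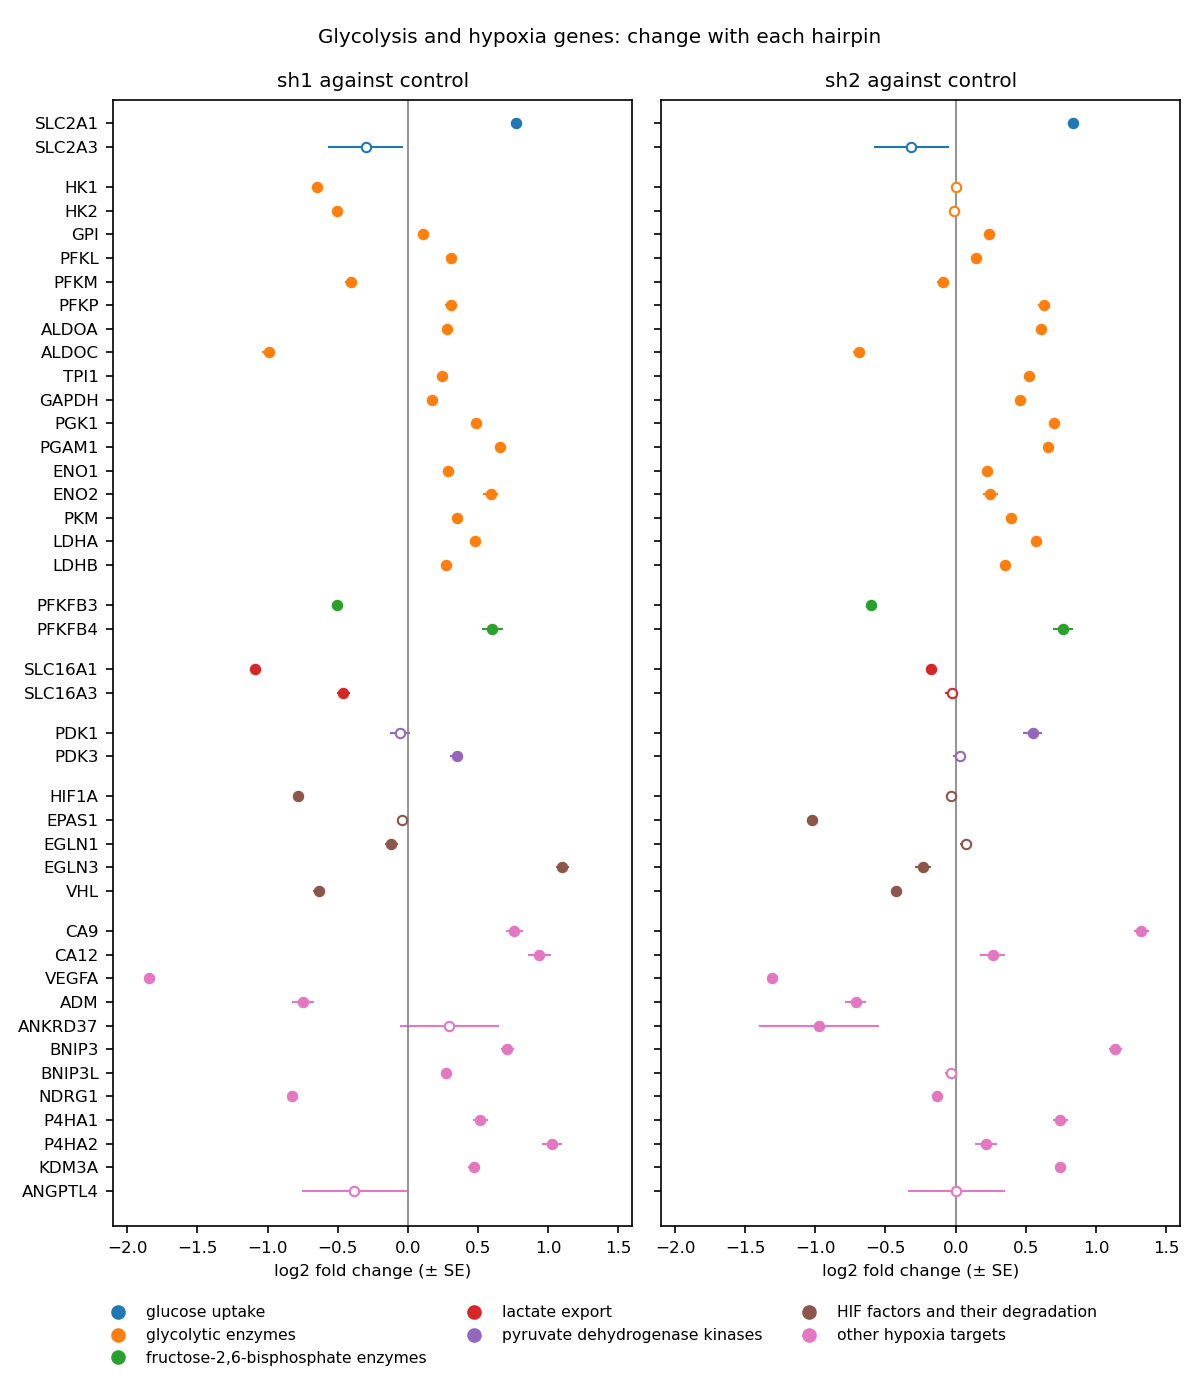
Log2 fold change (± SE, n = 3 libraries per group) of the 42 genes with sh1 (left) and sh2 (right) against control, grouped and coloured by role; filled points were called at an adjusted p below 0.05 and open points were not. Most glycolytic enzymes lie right of 0 in both panels, ALDOC and VEGFA lie left of it, and HIF1A, EPAS1 and EGLN3 sit at different places with the 2 hairpins.

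RNA of the glucose transporter SLC2A1 was higher in both hairpin groups. SLC2A1 (Entrez gene 6513), the main glucose transporter of epithelial tumours, had 408, 417 and 436 CPM with sh1, 437, 444 and 442 CPM with sh2, and 249.8, 244 and 247 CPM in control. All libraries of both hairpin groups lay above all control libraries, with sh2 slightly above sh1. The log2 fold changes were 0.77 ± 0.029 with sh1 and 0.84 ± 0.029 with sh2 (adjusted p = 3.21e-20 and 4.41e-21, edgeR). The difference between the hairpins, -0.069 ± 0.028, was called at an adjusted p of 0.0292 (edgeR), but lost that call in 10 of 19 alternatives, among them without sh1 library 1 or 2, sh2 library 2, or control library 2 or 3 (-0.044 to -0.061 over these libraries). SLC2A3 was measured at 1.02 to 2.15 CPM in all 9 libraries and was not called, and it made up at most 0.795% of the summed TPM of the pair. SLC2A3 shares near-identical sequence with SLC2A14, so the split of reads between them is uncertain.

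Among the glycolytic enzymes, 13 of 17 rose with each hairpin (76.5% in each case), where 34.7% of all genes tested rose with sh1 and 34.2% with sh2. With sh1 the other 4 fell (23.5%, against 34.6% of all genes), namely HK1, HK2, PFKM and ALDOC. With sh2 PFKM and ALDOC fell (11.8%, against 34.3% of all genes), and HK1 and HK2 were not called (0.00063 and -0.015). At 1.5-fold or more, 2 of the 17 rose and 2 fell with sh1 (11.8% each), near the 11.3% and 12.8% of all genes. With sh2, 4 rose (23.5%) and 1 fell (5.88%) at that size, against 9.73% and 12.4% of all genes. The median log2 fold change of the 17 was 0.28 with sh1 and 0.35 with sh2. The summed level of the 17 enzymes was 21054 ± 208 TPM with sh1, 23998 ± 179 TPM with sh2 and 18401 ± 142 TPM in control (SD, n = 3), with no overlap between groups. That is 1.14 times control with sh1 and 1.30 times control with sh2. The enzymes took 2.08% to 2.12% of all TPM with sh1, 2.39% to 2.42% with sh2 and 1.82% to 1.85% in control. GAPDH alone was 41.0% to 41.7% of the sum with sh1, 43.5% to 44.2% with sh2 and 43.5% to 43.8% in control, and without it the ratios were 1.19 and 1.30. TPM ratios of these genes lay about 0.05 (sh1) and 0.07 (sh2) on the log2 scale below the ratios of scaled counts. With FPKM in place of TPM the sums were 1.18 and 1.36 times control, and with scaled counts per length they were 1.18 and 1.37 times control.

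**Figure D2:**
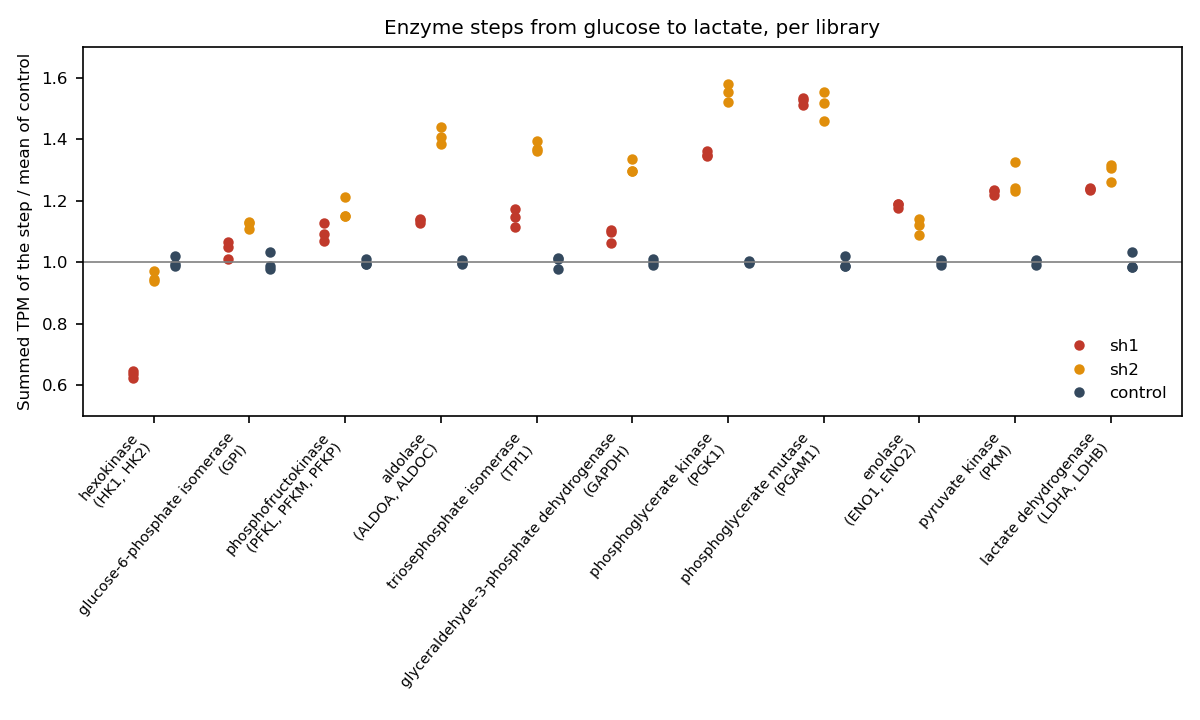
Summed TPM of the enzymes of each glycolytic step in each library, divided by the control mean of that step (unitless, not starting at 0; 3 points per group for sh1, sh2 and control). Hexokinase with sh1 lies near 0.64, phosphoglycerate mutase near 1.5 with both hairpins, and aldolase to phosphoglycerate kinase lie higher with sh2 than with sh1.

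The steps did not move by the same factor. Hexokinase, which traps glucose in the cell, summed to 115 ± 1.93 TPM with sh1, 172 ± 2.87 TPM with sh2 and 180.4 ± 3.03 TPM in control. That is 0.635 times control with sh1 and 0.952 times control with sh2. TPM ratios of both genes lay about 0.07 below scaled counts with sh2 (log2 scale). On scaled counts neither HK1 nor HK2 was called with sh2 (0.00063 and -0.015). HK1 (Entrez gene 3098), the widely expressed hexokinase, had 119, 118 and 120.2 CPM with sh1, 183, 185 and 192 CPM with sh2, and 187, 189.8 and 183 CPM in control. The sh1 libraries lay below all others, and those of sh2 and control overlapped. The log2 fold change of HK1 was -0.65 ± 0.033 with sh1 and -0.65 ± 0.033 for sh1 against sh2 (adjusted p = 4.56e-17 and 5.05e-17, edgeR). HK2, the inducible hexokinase and a known HIF target, fell by 0.51 with sh1 on the log2 scale. Its libraries held 100.1 to 104 CPM with sh1, 142 to 145 CPM with sh2 and 144 to 146 CPM in control.

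Phosphofructokinase commits sugar to glycolysis, and its 3 genes changed unequally. PFKP (Entrez gene 5214), the platelet-type subunit, had 147, 139 and 133 CPM with sh1, 168, 185 and 171 CPM with sh2, and 112, 114 and 113 CPM in control. The 3 groups did not overlap and sh2 was highest. Its log2 fold change was 0.31 ± 0.04 with sh1 and 0.63 ± 0.038 with sh2 (adjusted p = 6.61e-08 and 5.5e-15, edgeR). The liver-type PFKL rose by 0.31 and 0.15, whereas the muscle-type PFKM changed by -0.41 and -0.093. The sh2 call of PFKM (adjusted p = 0.0431, edgeR) was lost in 6 of 19 alternatives, among them without sh2 library 1 (-0.075), sh2 library 2 (-0.098), control library 1 (-0.061) or control library 3 (-0.097), with adjusted p of 0.0643 to 0.222 (edgeR). PFKM made up 14.2% of the summed TPM of the 3 genes with sh1, 16.2% with sh2 and 21.2% in control, and PFKP 38.2%, 44.6% and 35.2%.

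Aldolase showed the widest split within a step. ALDOA (Entrez gene 226), the main aldolase, had 1889, 1941 and 1922 CPM with sh1, 2351, 2418 and 2477 CPM with sh2, and 1598, 1571 and 1579 CPM in control. All 3 groups were separate, with sh2 highest and control lowest. ALDOC (Entrez gene 230), the brain-type aldolase, had 44.6, 50.2 and 50.5 CPM with sh1, 57.3, 61.0 and 61.3 CPM with sh2, and 99.1, 94.9 and 95.2 CPM in control, with control far above both hairpin groups. The log2 fold changes were 0.28 ± 0.024 and 0.61 ± 0.024 for ALDOA and -0.99 ± 0.045 and -0.69 ± 0.043 for ALDOC, with sh1 and sh2 in that order. The largest adjusted p of these 4 calls was 1.35e-11 (edgeR). ALDOC was 2.37 ± 0.130% of the summed TPM of both genes with sh1, 2.32 ± 0.038% with sh2 and 5.53 ± 0.085% in control.

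Enzyme genes of the later steps rose with each hairpin. PGK1 (Entrez gene 5230), which makes the first ATP of glycolysis, had 552, 569 and 558 CPM with sh1, 658, 654 and 641 CPM with sh2, and 407, 399 and 395 CPM in control. Its groups did not overlap, and the log2 fold change was 0.48 ± 0.026 with sh1 and 0.70 ± 0.026 with sh2 (adjusted p = 2.57e-16 and 2.83e-20, edgeR). PGAM1 (Entrez gene 5223), the phosphoglycerate mutase, had 529.6, 546 and 543 CPM with sh1, 553, 546 and 526 CPM with sh2, and 355, 338 and 336 CPM in control. Both hairpin groups lay above control and overlapped each other. PGAM1 rose by 0.65 ± 0.029 and 0.66 ± 0.029, and sh1 and sh2 differed by -0.007 ± 0.028 (adjusted p = 0.834, edgeR).

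ENO2 (Entrez gene 2026), the neuron-type enolase, had 43.1, 43.0 and 43.9 CPM with sh1, 33.3, 33.9 and 35.3 CPM with sh2, and 29.3, 29.7 and 27.4 CPM in control. The 3 groups were separate and sh1 was highest. ENO2 rose by 0.59 ± 0.052 with sh1 and 0.25 ± 0.054 with sh2, yet it was only 1.69%, 1.4% and 1.38% of the summed enolase TPM with sh1, sh2 and in control. GPI, TPI1, GAPDH, ENO1, PKM, LDHA and LDHB, 7 further enzymes of the route, rose by 0.11 to 0.48 with sh1 and by 0.22 to 0.57 with sh2, all under 1.5-fold. LDHA, which favours lactate formation, rose by 0.48 ± 0.03 and 0.57 ± 0.03, and its partner LDHB by 0.27 ± 0.03 and 0.35 ± 0.03. LDHA made up 41.8% of the summed TPM of both with sh1, 42.2% with sh2 and 38.4% in control, and both hairpin groups lay above control. GAPDH, ENO1, PGAM1, PGK1, PKM, LDHA and ALDOA have many processed pseudogenes, and reads shared with those copies make their counts uncertain. Between the hairpins, 12 of the 17 enzymes were lower with sh1 (70.6%, against 35.6% of all genes) and 3 higher (17.6%, against 34.2%), PFKL, ENO1 and ENO2, with a median log2 difference of -0.22. At 1.5-fold or more, only HK1 was lower with sh1 (5.88%, against 11.3% of all genes) and 0 were higher (against 12%). Some of the differences between the hairpins were small and lost their calls in some alternatives. That of ENO1 (0.062 ± 0.024) lost it in 4 of 19, among them without sh1 library 2, sh2 library 1 or sh2 library 3 (0.046 to 0.059). That of LDHB (-0.077 ± 0.03) lost it in 8 of 19, of which 3 kept all libraries. The others were without sh1 library 1 or 3, sh2 library 1 or 2, or control library 2 (-0.057 to -0.069). That of LDHA (-0.093 ± 0.03) lost it in 1 of 19, on log2(FPKM + 1) without a filter (-0.087). That of PKM (-0.045 ± 0.025) was not called, and was called without sh2 library 1 (-0.068).

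Promoter sequences are shown for the enzymes at both ends of the sh2 range, PGK1 with the highest fold change and ALDOC with the lowest, chosen after their values were seen. Both windows run from 250 bases before to 50 bases after the annotated start, 5′ to 3′ on the gene's strand, from RefSeq on GRCh38.p14 (chrX:78103998-78104297, plus strand, and chr17:28576846-28577145, minus strand). Capitals mark ACGTG on either strand, so CACGT is its reverse complement.
PGK1: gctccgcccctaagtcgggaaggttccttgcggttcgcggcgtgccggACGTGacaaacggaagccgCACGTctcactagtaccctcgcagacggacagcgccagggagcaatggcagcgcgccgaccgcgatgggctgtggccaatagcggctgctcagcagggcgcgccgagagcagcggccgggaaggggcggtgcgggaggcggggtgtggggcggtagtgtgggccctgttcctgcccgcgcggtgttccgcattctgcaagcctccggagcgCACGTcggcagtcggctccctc
ALDOC: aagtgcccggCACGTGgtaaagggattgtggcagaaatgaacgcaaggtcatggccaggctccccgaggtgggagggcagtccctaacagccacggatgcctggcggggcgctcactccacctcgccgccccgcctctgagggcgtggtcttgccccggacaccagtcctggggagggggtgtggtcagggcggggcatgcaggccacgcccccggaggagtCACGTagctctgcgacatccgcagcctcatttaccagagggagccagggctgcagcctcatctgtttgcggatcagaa
Each window holds 3 matches of ACGTG, counted per strand, so that CACGTG in ALDOC counts as 2. The other core motif, GCGTG, is left unmarked, with 1 match in PGK1 and 2 in ALDOC.

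Promoter windows were used for 36 of the 42 genes (not for SLC2A3, SLC16A1, VHL, VEGFA, NDRG1 and BNIP3L), 64 windows in all, since several genes have more than 1 start and some of their windows overlap. ACGTG was found in 25 of the 64 (39.1%), against 23.1% of 21589 windows of all genes in the count tables. GCGTG, which can overlap ACGTG, was found in 42.2% against 43.1%. For the 17 glycolytic enzymes, 15 of 37 windows held ACGTG (40.5%), and for the other hypoxia targets 5 of 10 did (50%). A match is a description of letters and not a binding site.

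The bifunctional enzymes that make and remove fructose-2,6-bisphosphate, the main activator of phosphofructokinase, moved in opposite directions. PFKFB3 (Entrez gene 5209), whose kinase activity prevails, had 82.6, 80.6 and 83.5 CPM with sh1, 78.3, 75.9 and 75.6 CPM with sh2, and 114, 117 and 118 CPM in control. Control was above both hairpin groups, and sh1 was slightly above sh2. PFKFB4 (Entrez gene 5210) had 20.5, 22.7 and 22.4 CPM with sh1, 24.9, 25.7 and 22.7 CPM with sh2, and 14.5, 13.5 and 15.2 CPM in control. Here both hairpin groups lay above control, and sh2 was above sh1, with the nearest libraries almost level. On the log2 scale PFKFB3 fell by 0.50 (sh1) and 0.61 (sh2), and PFKFB4 rose by 0.60 ± 0.076 and 0.76 ± 0.073 (largest adjusted p of the 4 = 3.3e-08, edgeR). PFKFB4 made up 24.3 ± 1.13% of their summed TPM with sh1, 27.8 ± 1.3% with sh2 and 13.2 ± 0.796% in control. The differences between the hairpins, 0.10 and -0.16, lost their calls in 2 and 7 of 19 alternatives. Among these were, for PFKFB3, the fit without sh1 library 3 (0.096) and, for PFKFB4, those without sh1 library 1 (-0.11), sh2 library 1 (-0.15) or sh2 library 2 (-0.12).

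RNA of both lactate transporters and of the pyruvate dehydrogenase kinase PDK1 differed between the hairpins. SLC16A1 (Entrez gene 6566), the monocarboxylate transporter MCT1, had 112, 109 and 105 CPM with sh1, 208, 201 and 208 CPM with sh2, and 229, 234 and 232 CPM in control. The sh1 libraries were far below the rest, and sh2 lay just below control without overlap. Its log2 fold change was -1.09 ± 0.033 with sh1, -0.17 ± 0.03 with sh2 and -0.92 ± 0.033 for sh1 against sh2 (largest adjusted p = 8.03e-06, edgeR). SLC16A3, the exporter MCT4 and a known HIF1A target, fell by 0.46 with sh1 and was not called with sh2 (-0.028 ± 0.045, with overlapping libraries). SLC16A3 was 49.1% of the summed TPM of both transporters with sh1, 40.7% with sh2 and 38.3% in control.

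PDK1 (Entrez gene 5163), a kinase that shuts pyruvate dehydrogenase and a known HIF1A target, had 20.5, 19.97 and 18.0 CPM with sh1, 31.8, 29.0 and 28.2 CPM with sh2, and 19.3, 21.3 and 20.2 CPM in control. The sh2 libraries stood above the rest, and sh1 and control overlapped. PDK1 rose by 0.55 ± 0.066 with sh2, was not called with sh1 (-0.057 ± 0.073) and differed between sh1 and sh2 by -0.61 ± 0.067. PDK3, another kinase of the complex, rose by 0.35 ± 0.046 with sh1 on counts, and its change with sh2 was 0.03 ± 0.047. The effective length given for PDK3 differed between groups, at 6952 bases with sh1, 5639 with sh2 and 8196 in control, so that length-scaled values moved apart from counts: on log2(FPKM + 1) PDK3 was 0.48 higher with sh2 than in control (limma adjusted p = 0.00014). The PDK3 difference between sh1 and sh2, 0.32 ± 0.045 on counts, was 0.020 on log2(FPKM + 1) and was not called there (limma adjusted p = 0.828). No other member had a gap of that size between TPM and count ratios.

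**Figure D3:**
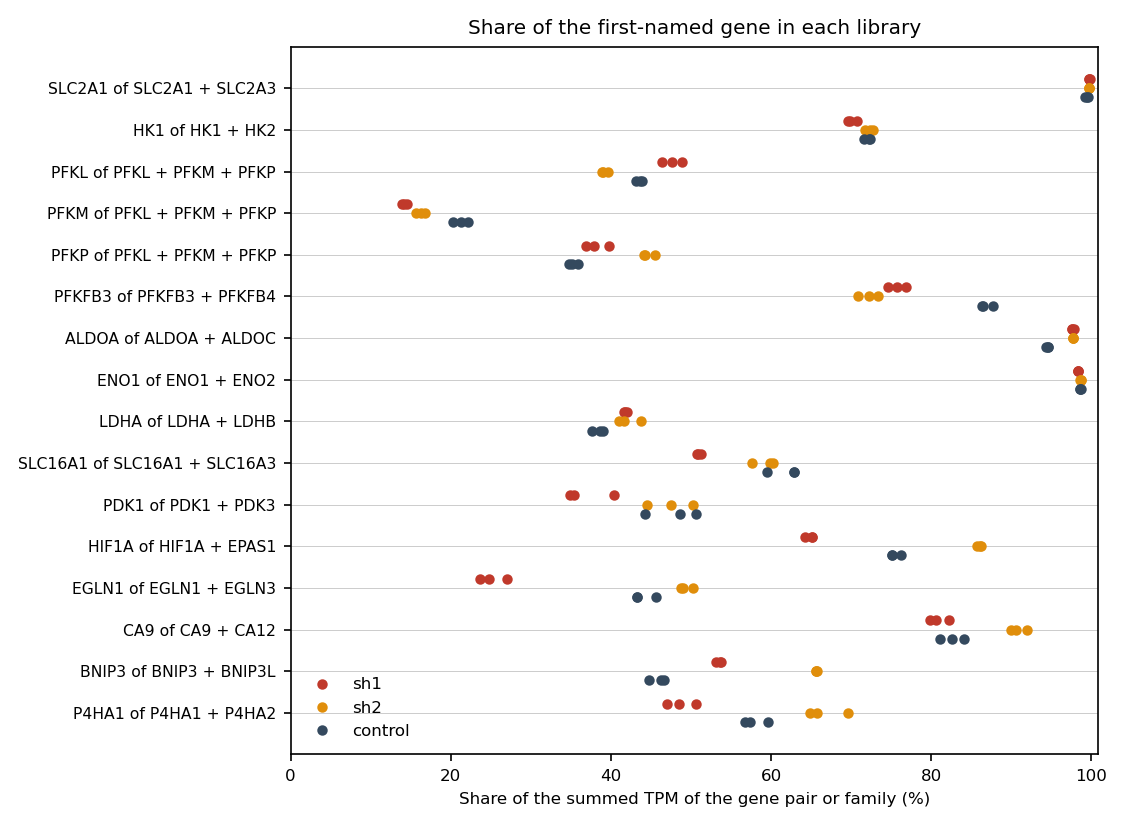
Share of the first-named gene in the summed TPM of its pair (%), 1 point per library for sh1, sh2 and control. For phosphofructokinase, PFKL, PFKM and PFKP are each shown as a share of their summed TPM. EGLN1 with sh1 (23.7% to 27.1%), HIF1A with sh2 (85.7% to 86.2%) and PFKFB3 in control (86.3% to 87.8%) stand apart from the other groups.

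The oxygen-sensing genes differed between sh1 and sh2, and EGLN3 had the largest such difference of the 42 genes. HIF1A (Entrez gene 3091), the broadly expressed alpha subunit, had 458, 456 and 463 CPM with sh1, 782, 767 and 769.9 CPM with sh2, and 766, 788 and 813 CPM in control. Only the sh1 libraries were low, and sh2 and control overlapped. EPAS1 (Entrez gene 2034), the related alpha subunit HIF-2 alpha, had 325, 311 and 316 CPM with sh1, 159.5, 158 and 164 CPM with sh2, and 324, 333 and 324 CPM in control. For this gene only the sh2 libraries were low, and sh1 and control overlapped. HIF1A changed by -0.78 ± 0.026 with sh1 and -0.03 ± 0.026 with sh2, and EPAS1 by -0.042 ± 0.028 and -1.03 ± 0.03. The differences between the hairpins were -0.75 ± 0.026 for HIF1A and 0.98 ± 0.03 for EPAS1 (adjusted p = 8.28e-21 and 2.68e-22, edgeR). EPAS1 made up 35.2 ± 0.515% of the summed TPM of both subunits with sh1, 14.0 ± 0.271% with sh2 and 24.6 ± 0.629% in control.

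EGLN3 (Entrez gene 112399), a prolyl hydroxylase that is itself induced by hypoxia, had 69.0, 74.7 and 73.9 CPM with sh1, 27.7, 30.5 and 28.2 CPM with sh2, and 34.2, 33.4 and 33.8 CPM in control. The sh1 libraries were the highest, and sh2 lay below control without overlap. It rose by 1.102 ± 0.048 with sh1 and fell by 0.23 with sh2 in log2 terms (adjusted p = 1.17e-18 and 0.00061, edgeR), a difference of 1.33 ± 0.049 between the hairpins. EGLN1, the hydroxylase that sets the basal level of HIF1A protein, was within 61.5 to 76.3 CPM in all 9 libraries. Its fall by 0.12 with sh1 (adjusted p = 0.0208, edgeR) lost the call in 6 of 19 alternatives, including without sh1 library 3 (-0.079, adjusted p = 0.156, edgeR) and without control library 3 (-0.073, adjusted p = 0.18, edgeR). With sh2 EGLN1 was not called (0.073 ± 0.043), except without control library 3 (0.11, adjusted p = 0.0378, edgeR). EGLN3 made up 74.8 ± 1.74% of the summed TPM of EGLN1 and EGLN3 with sh1, 50.7 ± 0.816% with sh2 and 55.9 ± 1.36% in control.

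VHL (Entrez gene 7428), the tumour suppressor that recognises hydroxylated HIF alpha, had 76.7, 76.4 and 69.4 CPM with sh1, 90.2, 84.4 and 82.7 CPM with sh2, and 111, 117 and 116 CPM in control. Control was above both hairpin groups and sh2 above sh1, without overlap. On the log2 scale VHL fell by 0.63 (sh1) and 0.42 (sh2) (largest adjusted p = 1.72e-10, edgeR). Of these 5 genes, 1 rose and 3 fell with sh1, where 34.7% and 34.6% of all genes did, and 0 rose and 3 fell with sh2, where 34.2% and 34.3% did.

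**Figure D4:**
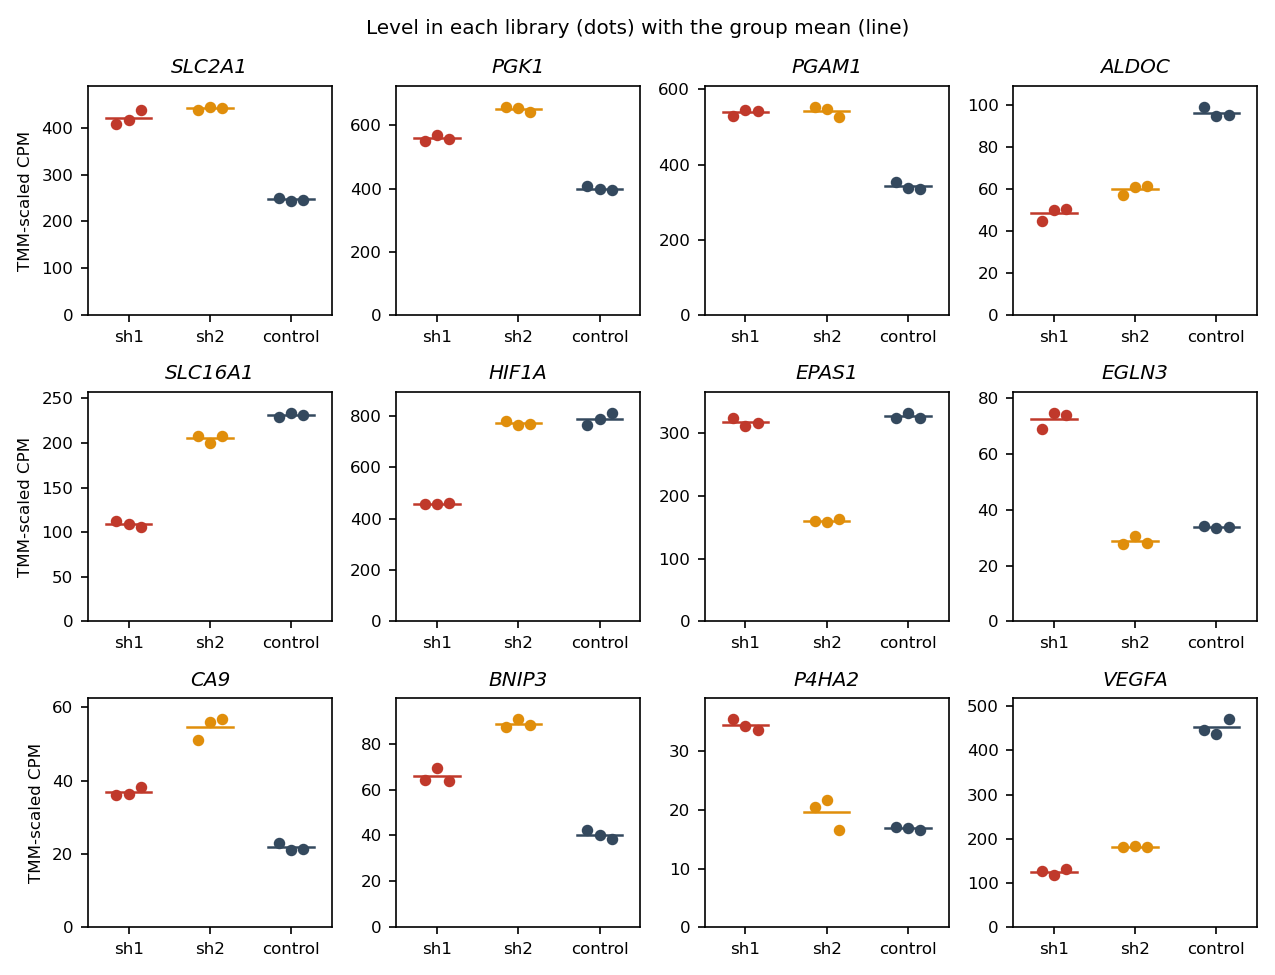
TMM-scaled CPM of 12 of the 42 genes in each library (points) with the group mean (line), for sh1, sh2 and control, each panel starting at 0. SLC2A1, PGK1, PGAM1, CA9 and BNIP3 are higher in all 6 hairpin libraries than in control, ALDOC and VEGFA are lower in all 6, and SLC16A1, HIF1A, EGLN3 and P4HA2 set sh1 apart while EPAS1 sets sh2 apart.

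Of the 12 other hypoxia targets, 7 rose and 3 fell with sh1 (58.3% and 25.0%), where 34.7% and 34.6% of all genes did. With sh2, 6 rose and 4 fell (50% and 33.3%), against 34.2% and 34.3% of all genes. The share that fell with sh2 was thus near that of all genes when any size of change is counted. At 1.5-fold or more, 4 rose and 3 fell with each hairpin (33.3% and 25.0%). Of all genes, 11.3% rose and 12.8% fell at that size with sh1, and 9.73% and 12.4% with sh2. The median log2 fold change was 0.38 with sh1 and 0.11 with sh2. The sh2 median was 0.040 without sh2 library 2, 0.23 without sh2 library 3 and 0.21 in a fit of the compared groups alone. It was 0.19 or 0.22 on log2 FPKM with a pseudocount of 1 or 0.1, where the filter left out ANKRD37 and ANGPTL4. Those 2 FPKM medians are therefore of a smaller set of targets. Fold changes of the 12 targets ran from -1.84 to 1.03 with sh1 and from -1.31 to 1.32 with sh2. Those of the 17 glycolytic enzymes ran from -0.99 to 0.65 and from -0.69 to 0.70. The summed level of the 12 was 571 ± 5.51 TPM with sh1, 686 ± 5.09 TPM with sh2 and 790.4 ± 14.9 TPM in control, lower in both hairpin groups. Without VEGFA the sum was 472 ± 1.31 TPM with sh1, 545 ± 5.70 TPM with sh2 and 428 ± 4.06 TPM in control, higher in both.

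Carbonic anhydrase genes, which serve pH control, rose. CA9 (Entrez gene 768), a membrane carbonic anhydrase and a standard marker of HIF1A activity, had 36.2, 36.3 and 38.2 CPM with sh1, 51.1, 56.0 and 56.9 CPM with sh2, and 23.0, 21.2 and 21.3 CPM in control. The 3 groups were separate, with sh2 highest and control lowest. CA12 (Entrez gene 771), a second membrane carbonic anhydrase, had 24.8, 23.9 and 22.7 CPM with sh1, 15.5, 13.1 and 16.1 CPM with sh2, and 11.6, 13.5 and 12.2 CPM in control. Only sh1 stood clear for CA12, and sh2 overlapped control. CA9 rose by 0.76 ± 0.061 with sh1 and 1.32 ± 0.056 with sh2, and CA12 by 0.94 ± 0.081 and 0.26 ± 0.088 (adjusted p for CA9 = 3.06e-12 and 7.3e-19, edgeR). The sh2 call of CA12 (adjusted p = 0.0094, edgeR) ended without sh2 library 3 (0.20, adjusted p = 0.061, edgeR) and without control library 1 (0.21, adjusted p = 0.0619, edgeR).

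The vascular genes VEGFA and ADM fell. VEGFA (Entrez gene 7422), the growth factor that draws in blood vessels, had 127, 119 and 131 CPM with sh1, 181, 183 and 182 CPM with sh2, and 447, 437 and 471 CPM in control. Control lay far above both hairpin groups, and sh1 was lowest. ADM (Entrez gene 133), the vasodilator peptide adrenomedullin, had 15.9, 15.9 and 18.4 CPM with sh1, 17.3, 17.7 and 16.5 CPM with sh2, and 30.6, 29.2 and 24.7 CPM in control. Control was again above both, which overlapped each other. VEGFA changed by -1.84 ± 0.034 with sh1 and -1.31 ± 0.033 with sh2, the largest fall of the 42 genes in each comparison, and ADM by -0.75 ± 0.078 and -0.71 ± 0.076 (largest adjusted p of the 4 = 1.4e-09, edgeR). ANGPTL4, a secreted lipase inhibitor, was at 0.407 to 1.120 CPM and was not called in any comparison.

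BNIP3 (Entrez gene 664), a mitochondrial protein that starts mitophagy, had 64.2, 69.5 and 63.9 CPM with sh1, 87.3, 90.7 and 87.9 CPM with sh2, and 42.3, 40.1 and 38.4 CPM in control. The groups were separate, with sh2 highest. BNIP3 had log2 fold changes of 0.71 ± 0.048 with sh1 and 1.14 ± 0.045 with sh2 (adjusted p = 4.41e-14 and 1.34e-19, edgeR), while its relative BNIP3L rose by 0.27 ± 0.036 with sh1 and was not called with sh2 (-0.036 ± 0.037). BNIP3 made up 53.5 ± 0.377% of their summed TPM with sh1, 65.7 ± 0.049% with sh2 and 45.9 ± 1.00% in control.

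The promoters of CA9 and BNIP3 are shown because these targets rose most with sh2, again chosen after their values were seen. They are the RefSeq windows chr9:35673678-35673977 (plus strand) and chr10:131981874-131982173 (minus strand) on GRCh38.p14, printed as for the enzymes above, with ACGTG on either strand in capitals.
CA9: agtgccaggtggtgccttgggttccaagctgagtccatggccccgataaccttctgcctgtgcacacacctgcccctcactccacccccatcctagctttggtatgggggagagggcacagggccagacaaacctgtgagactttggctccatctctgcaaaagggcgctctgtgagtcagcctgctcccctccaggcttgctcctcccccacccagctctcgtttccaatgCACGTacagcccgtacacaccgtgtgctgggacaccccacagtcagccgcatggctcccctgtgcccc
BNIP3: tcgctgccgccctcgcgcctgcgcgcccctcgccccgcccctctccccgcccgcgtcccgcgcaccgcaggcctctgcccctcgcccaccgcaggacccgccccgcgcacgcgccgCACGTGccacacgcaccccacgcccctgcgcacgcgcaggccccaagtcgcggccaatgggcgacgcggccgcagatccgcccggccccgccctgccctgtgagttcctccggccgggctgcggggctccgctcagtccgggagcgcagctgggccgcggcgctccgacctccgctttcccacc
CA9 holds 1 match, starting 18 bases before the annotated start, and BNIP3 holds the palindrome CACGTG, counted as 2, starting 134 bases before it. GCGTG, again unmarked, has 0 matches in CA9 and 4 in BNIP3.

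Collagen prolyl hydroxylases, which let collagen fold, rose with each hairpin but in different proportion. P4HA1 (Entrez gene 5033) had 42.2, 43.0 and 46.3 CPM with sh1, 51.3, 52.7 and 50.3 CPM with sh2, and 29.5, 30.3 and 32.2 CPM in control. P4HA2 (Entrez gene 8974) had 35.6, 34.3 and 33.7 CPM with sh1, 20.6, 21.7 and 16.7 CPM with sh2, and 17.2, 16.95 and 16.7 CPM in control. P4HA1 was highest with sh2, and P4HA2 was highest with sh1 while its sh2 libraries overlapped control. P4HA1 rose by 0.52 ± 0.054 with sh1 and 0.75 ± 0.051 with sh2, and P4HA2 by 1.03 ± 0.072 and 0.22 ± 0.079. The sh2 call of P4HA2 (adjusted p = 0.0173, edgeR) was lost in 5 of 19 alternatives, among them without sh2 library 1 (0.18, adjusted p = 0.0782, edgeR), without sh2 library 2 (0.14, adjusted p = 0.166, edgeR) and without control library 3 (0.20, adjusted p = 0.054, edgeR). P4HA2 was 51.3 ± 1.80% of their summed TPM with sh1, 33.3 ± 2.55% with sh2 and 42.1 ± 1.51% in control.

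KDM3A (Entrez gene 55818), a histone H3 lysine demethylase, had 97.5, 95.3 and 102 CPM with sh1, 119, 119 and 119 CPM with sh2, and 68.5, 75.1 and 69.2 CPM in control. Its groups were separate, sh2 highest, with log2 fold changes of 0.47 ± 0.041 with sh1 and 0.75 ± 0.039 with sh2 (adjusted p = 1.4e-11 and 1.41e-16, edgeR). NDRG1 (Entrez gene 10397), a stress-responsive gene used as a marker of hypoxic tissue, had 88.0, 85.1 and 84.7 CPM with sh1, 138, 138 and 141 CPM with sh2, and 151, 151 and 154 CPM in control. The sh1 libraries were lowest and sh2 lay below control without overlap. Its log2 fold changes were -0.82 ± 0.034 and -0.13 ± 0.032, and sh1 and sh2 differed by -0.69 ± 0.034 (adjusted p = 3.18e-17, edgeR).

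ANKRD37 (Entrez gene 353322), a small ankyrin-repeat protein, had 1.15, 0.677 and 1.09 CPM with sh1, 0.501, 0.187 and 0.511 CPM with sh2, and 0.585, 1.13 and 0.659 CPM in control. These levels rest on 43, 19 and 36 counts over the libraries of sh1, sh2 and control, and 1 sh2 library was at the floor of 3 counts. The log2 fold change with sh2, -0.97 ± 0.43, was called at an adjusted p of 0.0439 (edgeR) and lost that call in 6 of 19 alternatives, including without sh2 library 2 (-0.64, adjusted p = 0.212, edgeR) and without control library 2 (-0.64, adjusted p = 0.26, edgeR), and with the table number as a replicate block (-0.98, adjusted p = 0.0515, edgeR). Between the hairpins it was 1.27 ± 0.41 (adjusted p = 0.00706, edgeR), a call lost without sh2 library 2 (0.93, adjusted p = 0.0557, edgeR).

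Further genes of the same pathways were counted from lists of names, also chosen with earlier results of these data known. Of 32 other glycolysis and pyruvate genes, 22 passed the filter, 8 rose and 11 fell with sh1, and 5 rose and 10 fell with sh2, with medians of -0.14 and -0.072. The share that rose, 36.4% with sh1 and 22.7% with sh2, lay near or below the 34.7% and 34.2% of all genes. The share that fell, 50% and 45.5%, lay above the 34.6% and 34.3% of all genes. Changes of at least 2-fold were the falls of SLC16A7, the monocarboxylate transporter MCT2 (-2.16 ± 0.055 with sh1), PDP1, the phosphatase that reactivates pyruvate dehydrogenase (-1.51 ± 0.037 with sh1 and -1.15 ± 0.035 with sh2), and MPC1, a subunit of the mitochondrial pyruvate carrier (-1.41 ± 0.13 with sh1). With sh2, SLC16A7 and MPC1 changed by -0.50 ± 0.043 and -0.27 ± 0.11. The 1 rise of that size was SLC2A14 with sh1 (1.02 ± 0.31, 77, 54 and 39 counts with sh1, sh2 and in control), the near-identical relative of SLC2A3.

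Of 36 other HIF pathway genes and hypoxia targets, all tested, 21 rose and 10 fell with sh1, and 18 rose and 9 fell with sh2, with medians of 0.28 and 0.16. The share that rose was 58.3% with sh1 and 50% with sh2, against 34.7% and 34.2% of all genes, and the share that fell was 27.8% and 25.0%, against 34.6% and 34.3%. ARNT, the partner of both alpha subunits, fell by 0.68 with sh1. With sh2 ARNT was called higher by 0.098 ± 0.037 (adjusted p = 0.0203, edgeR), with libraries that overlapped those of control. HIF1AN, the asparagine hydroxylase that silences HIF alpha, rose by 0.68 ± 0.042 and 0.46 ± 0.043. The targets that rose at least 2-fold in either comparison were STC1, a secreted glycoprotein hormone (1.33 ± 0.068 with sh1 and 2.45 ± 0.058 with sh2), PPFIA4 (1.35 ± 0.20 and 1.31 ± 0.20), PLOD1, a collagen lysyl hydroxylase (1.01 ± 0.036 and 0.26 ± 0.038), and TMEM45A (1.23 ± 0.20 with sh1, and 0.27 ± 0.22 with sh2, not called). Those that fell at least 2-fold were DDIT4, an inhibitor of mTORC1 (-2.88 ± 0.032 and -1.64 ± 0.029), STC2, a relative of STC1 (-2.66 ± 0.038 and -2.45 ± 0.037), BHLHE40, a transcriptional repressor (-1.87 ± 0.041 and -1.49 ± 0.039), and INSIG2 with sh1 (-1.27 ± 0.10, and 0.051 ± 0.082 with sh2, not called). DDIT4, STC2 and VEGFA are also known targets of ATF4, the factor of the integrated stress response. Whether ATF4 had a part in these falls was not tested.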

How the data were processed

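The 42 genes and the further lists were chosen with earlier results of these data known. Per the file headers, the deposited tables hold 4 values, namely expected counts, TPM, FPKM and an effective length, for each of 19266 genes under Entrez identifiers. The submitters' processing notes list RSEM 1.2.12, Bowtie2 2.2.5, HISAT2 2.0.4 and DESeq2 1.4.5 beside the build hg19, with no role for any of them. The sources used here do not give the strand setting of the counting, so overlapping and antisense genes are uncertain. Symbols came from a RefSeq table of GRCh38.p14, used for names, for 19223 identifiers. A series table of FPKM values, with 9 columns, was not used.

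Expected counts were rounded and analysed in R 4.3.3 with edgeR 4.0.16: filterByExpr, TMM scaling and 1 quasi-likelihood fit of all 9 libraries with group as the only term. The threshold was a Benjamini-Hochberg adjusted p of 0.05 over all 13580 genes. CPM are TMM-scaled counts at a common library size, and fold changes are log2 values with an SE derived as the log2 fold change over the square root of the F statistic. Deposited TPM values, which the authors' tables scale per length, were used to compare genes, for sums and for shares. The FPKM values deposited by the authors entered alternatives alone, on log2(FPKM + 1) or log2(FPKM + 0.1) with limma 3.58.1 and a mean of at least 1 FPKM, which understates the change of low genes. DESeq2 1.42.0 was a further alternative.

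Every one of the 42 genes is accounted for. Values in every library are given for those called at 1.5-fold or more in any comparison, and genes of the further lists are named at 2-fold or more in a comparison with control. ARNT and HIF1AN were named after their values were seen. Tables of 1 sample differed by a chi-square per gene of 1.41 to 2.44 over genes averaging 20 counts or more, above sampling noise. Deviations of tables with the same number had correlations of -0.067 to 0.032, and those of tables with different numbers -0.076 to 0.069. The main fit used no pairing, and these values cannot show whether tables of the same number belong together. A floor of 3 counts is 0.186 to 0.205 CPM, for counting error only.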

Additional observations from a re-analysis of the deposited data

Results flagged for a closer look

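EGLN3 was the gene among the 42 that was called in opposite directions by the hairpins, higher with sh1 (1.102 ± 0.048) and lower with sh2 (-0.23 ± 0.056) than in control, on the log2 scale. The difference between sh1 and sh2 was itself called at 1.33 ± 0.049 (adjusted p = 2.66e-20, edgeR). Its levels were 69.0, 74.7 and 73.9 CPM with sh1, 27.7, 30.5 and 28.2 CPM with sh2, and 34.2, 33.4 and 33.8 CPM in control, so that each sh1 library lay above each sh2 library. The direction held in every alternative run.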

How the results depend on the processing

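Each of the 126 log2 fold changes of the 42 genes was recomputed under up to 19 alternatives: other scalings, DESeq2, no filter, FPKM with limma, the table number as a replicate block, only the groups compared, summed tables (fold changes without a test) and each library left out. No called fold change changed direction. With sh1 against control the count of rises was 24 in each alternative and 12 to 13 genes fell, with sh2 21 to 23 rose and 9 to 11 fell, and for sh1 against sh2 9 to 11 were higher and 22 to 26 lower. Calls were lost in at least 1 alternative by 1 gene for sh1, 4 for sh2 (each against control) and 8 for sh1 against sh2. The replicate block ended 1 call, that of ANKRD37 with sh2 (-0.98, adjusted p = 0.0515, edgeR). The median of the other hypoxia targets ran from 0.35 to 0.51 with sh1, 0.040 to 0.23 with sh2 and -0.26 to -0.16 for sh1 against sh2. These ranges include the filtered FPKM fits, whose medians leave out ANKRD37 and ANGPTL4.

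Values near 0 that were not called crossed it. HK1 with sh2 (main value 0.00063) was -0.0029 under RLE factors and DESeq2, -0.0031 without TMM, -0.0107 without the filter, -0.0034 on log2(FPKM + 1) with or without its filter and on log2(FPKM + 0.1), -0.0036 with only the groups compared and -0.0021 with summed tables. ANGPTL4 with sh2 was -0.0055 without the filter, -0.0092 on FPKM without it and -0.0034 with the block. For sh1 against sh2, SLC2A3 was -0.0043 on FPKM without the filter, and PGAM1 was 2.2e-05 without the filter and 0.00049 (pseudocount 1, with or without its filter) or 0.000495 (pseudocount 0.1) on FPKM. With 1 library left out, HK1 ranged over -0.022 to 0.016, SLC16A3 over -0.067 to 0.031 and ANGPTL4 over -0.24 to 0.26 with sh2, and SLC2A3 over -0.11 to 0.18, PGAM1 over -0.029 to 0.010 and ADM over -0.10 to 0.0033 for sh1 against sh2. On scaled counts per length, the share of LDHA was 42.1% with sh1 and that of BNIP3 65.4% with sh2, and the enzyme sum was 1.18 times control with sh1 and 1.37 times with sh2 (1.18 and 1.36 on FPKM). The cause of these shifts was not tested. ANKRD37, ANGPTL4 and SLC2A3, with 19 to 75 counts per group, limit what depth can show.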

Other observations

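Collagen-modifying enzymes of the wider hypoxia list, singled out after their values were seen, were higher with sh1 than in control. PLOD2, a lysyl hydroxylase, had log2 fold changes of 0.96 ± 0.035 with sh1 and 0.65 ± 0.036 with sh2. The lysyl oxidase LOX had 0.69 ± 0.057 and 0.82 ± 0.055 (largest adjusted p of these 4 = 4.72e-12, edgeR). LOXL2, a relative of LOX, rose by 0.82 ± 0.032 with sh1 and changed by -0.28 ± 0.035 with sh2 (adjusted p = 1.15e-19 and 2.5e-08, edgeR).

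Partners of VHL in its ubiquitin ligase, also named after their values were seen, did not fall with it. With sh1 the log2 rises of ELOB, ELOC and RBX1 were 0.24, 0.27 and 0.28. With sh2 they were 0.25, 0.25 and 0.39 (largest adjusted p of the 6 = 0.000143, edgeR), whereas CUL2 was not called (0.12 ± 0.058 and 0.037 ± 0.058). Around pyruvate dehydrogenase, PDP2 and PDK2 were likewise named after their values were seen. The phosphatase PDP2 changed by -0.67 ± 0.053 with sh1 and -0.47 ± 0.051 with sh2. The kinase PDK2 changed by 0.58 ± 0.08 and 0.53 ± 0.08 (largest adjusted p of the 4 = 8.19e-07, edgeR). Of the subunit genes on that list, PDHA1 rose by 0.35 and 0.20, and PDHX changed by 0.18 and -0.15. DLAT rose by 0.10 with sh1 and was not called with sh2. PDHB and DLD were not called with either hairpin against control.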
